A study of Mus musculus with 6 samples.

Results

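Glycolysis and hypoxia response genes were followed in mouse macrophages that received BW723C86, an agonist of the serotonin receptor 5-HT2B, or its vehicle DMSO. The set held 37 genes, picked by symbol from the 28822 rows of the count table: 6 genes of oxygen sensing and of the hypoxia-inducible factor (HIF), 17 glycolytic enzymes, 3 kinases that set glycolytic flux and 11 other HIF targets. By the series' title, RNA came from bone marrow-derived macrophages (BMDMs) in the upper chamber of a Transwell, a porous insert that lets soluble factors pass. The lower chamber held HT22 cells, a mouse hippocampal neuronal line, after 2 h of oxygen-glucose deprivation (OGD), and this held for all libraries of both groups, so that no group lacks the deprived neurons. One group received BW723C86 (n = 3) and the other DMSO (n = 3), and the comparison asks how the agonist moved these transcripts in the upper cells. The sources used here give neither the strain and age of the mice nor the dose and length of treatment, and the series' design text allows BV2 microglia in place of BMDMs. No label ties the replicates to separate cultures or animals, so the spread behind each p-value is that between these libraries and may be technical.

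Glycolysis splits glucose into pyruvate, which lactate dehydrogenase turns into lactate when it is not burnt in mitochondria, and macrophages lean on this route when they are activated. HIF-1α, encoded by Hif1a, is made all the time and in well-oxygenated cells is hydroxylated by the prolyl hydroxylases Egln1, Egln2 and Egln3, bound by the ubiquitin ligase subunit Vhl and destroyed. When oxygen is short it persists, pairs with Arnt and binds a short DNA element with the core ACGTG or GCGTG near genes for glucose uptake, nearly every glycolytic step, cell survival and collagen hydroxylation. Because much of this control acts on the protein, transcript counts report neither HIF protein nor glycolytic flux.

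The core element was looked for in the 250 bases before each gene's start in RefSeq (build GRCm38.p6), on both strands. An entry was found for 35 of the 37 genes, and Bnip3l and Ndrg1 had none. ACGTG or GCGTG was present in at least 1 window of 31 of the 35 genes (88.6%), against 41.5% of 27025 genes with an entry and 63.6% of the 7880 such genes that reached 5 CPM (read counts scaled to a common library size) in at least 3 libraries. The 35 genes had more windows per gene (53 windows, against 32851 and 10074 in those sets). Counted per window, the shares were 77.4%, 38.6% and 57.4%. By outcome of the test described further on, 5 of 7 genes that were higher with BW723C86 held it, 11 of 12 that were lower and 14 of 15 that did not pass. The set was drawn up in part from known HIF targets, and a match describes the letters only. The windows below belong to the pair of single-start genes that fell most (Hif1a and Ddit4), the pair that rose most among those with an entry (Ldhb and P4ha2) and the phosphofructokinase pair that moved apart (Pfkl and Pfkp). Capitals mark ACGTG or GCGTG read on either strand, so that CACGC is GCGTG on the other strand and CACGTG is the element on both.
Hif1a, chr12:73907617-73907866, plus strand: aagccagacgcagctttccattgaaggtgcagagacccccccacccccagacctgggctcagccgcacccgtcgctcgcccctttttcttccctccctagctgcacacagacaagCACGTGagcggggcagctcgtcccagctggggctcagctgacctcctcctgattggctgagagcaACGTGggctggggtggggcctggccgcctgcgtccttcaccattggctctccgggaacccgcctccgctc
Ddit4, chr10:59951771-59952020, minus strand: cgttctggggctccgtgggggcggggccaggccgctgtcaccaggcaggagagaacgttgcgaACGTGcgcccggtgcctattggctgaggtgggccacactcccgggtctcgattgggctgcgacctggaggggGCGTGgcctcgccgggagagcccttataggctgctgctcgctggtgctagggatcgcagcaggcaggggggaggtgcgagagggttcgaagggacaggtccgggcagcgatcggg
Ldhb, chr6:142507958-142508207, minus strand: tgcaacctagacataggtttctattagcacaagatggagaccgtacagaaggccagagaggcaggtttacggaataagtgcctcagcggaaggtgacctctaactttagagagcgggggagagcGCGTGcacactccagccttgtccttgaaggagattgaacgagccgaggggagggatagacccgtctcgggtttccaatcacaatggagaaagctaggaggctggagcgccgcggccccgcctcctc
P4ha2, chr11:54100674-54100923, plus strand: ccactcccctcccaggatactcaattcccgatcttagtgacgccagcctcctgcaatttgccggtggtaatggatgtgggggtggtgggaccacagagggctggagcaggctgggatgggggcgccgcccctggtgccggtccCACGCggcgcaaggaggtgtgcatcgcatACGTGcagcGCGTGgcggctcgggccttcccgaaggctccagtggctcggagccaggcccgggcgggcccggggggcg
Pfkl, chr10:78009808-78010057, minus strand: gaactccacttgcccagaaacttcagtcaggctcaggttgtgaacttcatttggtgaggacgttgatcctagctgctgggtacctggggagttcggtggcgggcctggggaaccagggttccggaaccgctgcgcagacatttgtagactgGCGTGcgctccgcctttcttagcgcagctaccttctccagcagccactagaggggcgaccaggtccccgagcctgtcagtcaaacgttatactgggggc
Pfkp, chr13:6648772-6649021, minus strand: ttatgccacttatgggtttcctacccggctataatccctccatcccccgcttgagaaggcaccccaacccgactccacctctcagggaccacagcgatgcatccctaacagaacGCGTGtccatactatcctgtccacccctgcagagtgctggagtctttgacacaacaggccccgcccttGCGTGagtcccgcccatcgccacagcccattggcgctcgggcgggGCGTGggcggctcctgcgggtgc
The Hif1a window itself held 3 matches, which begin 135, 134 and 70 bases before the start, the CACGTG being counted once on each strand. The window of Ddit4, which fell, held 2 matches, and that of P4ha2, which rose, held 3. Pfkl held 1 match and Pfkp 3, and these genes moved in opposite directions. Genes that rose and genes that fell thus both carried the element in this window.

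Total counts ran from 58841307 to 75931615 per library and 19034 to 20002 genes were detected, and the leading principal component, with 56.9% of the variance, separated the groups. The sum of 12 macrophage markers was 37711 to 38571 CPM with DMSO and 33112 to 34322 with BW723C86, most of it Lyz2 (32877 and 29407 CPM on average). Of the 12, 4 were higher and 5 lower with BW723C86: Csf1r and Mertk had log2 fold changes of 0.53 and 0.79, and Itgam and Adgre1 of -1.10 and -0.82, while Aif1 was low (7.28 and 8.61 CPM) and Cx3cr1 near 0 (0.240 and 0.327 CPM). Of 13 neuronal markers, 9 were in the table, and of these Map2, Nefl and Dcx were at 0 in every library, and the sum was 7.06 to 8.46 CPM with DMSO and 18.8 to 20.2 with BW723C86, nearly all of it Syn1. Sums of 8 cell cycle markers overlapped (431 to 448 CPM with DMSO and 422 to 434 with BW723C86), but the genes moved in opposite directions. With BW723C86 5 of the 8 were higher and 3 lower, with Ccnb1 at a log2 fold change of 0.56 and Mki67 at -0.64. The low sums of fibroblast markers also overlapped. Low sums of lymphoid (7.97 to 11.8 and 3.45 to 4.49 CPM) and erythroid markers (1.70 to 2.07 and 2.11 to 2.54 CPM) differed. Sums of neutrophil, monocyte and dendritic cell markers also differed, each carried mainly by 1 or 2 genes. The sum of 12 neutrophil markers was 2584 to 2660 CPM with DMSO and 703 to 808 with BW723C86, mostly Mmp8 (2417 and 716), and 9 of 9 tested were lower. That of 8 monocyte markers was 6019 to 6097 and 1482 to 1608, mostly Chil3 (3203 and 1105) and Fn1 (2170 and 243), and all 8 were lower. That of 9 dendritic cell markers was 943 to 946 and 4550 to 4872, mostly Itgax (471 and 2361) and H2-Aa (428 and 2299), with 6 of 8 tested higher, Ccr7 and Flt3 not past the threshold and Xcr1 too low to test. Their part in the values below was not tested, and in bulk RNA fewer cells of a type and less RNA per cell cannot be told apart.

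Of the 37 genes, 36 had enough counts to be tested. With BW723C86 8 rose, 12 fell and 16 did not pass an adjusted p of 0.05 in edgeR's quasi-likelihood test across all genes. That is 20 of 36 (55.6%), while 42% of all 15567 tested genes passed, 21.3% higher and 20.7% lower. Over all genes 3319 were higher and 3215 lower, and the split became 2581 to 4124 when counts were scaled by library totals alone. Well-expressed genes passed more often: of genes reaching 5 CPM in at least 3 libraries 52.9% passed, and of the 34 members that reached it 18 passed, also 52.9%. The share of members that changed was therefore that of other genes of such level. Changes were mostly small, with a median log2 fold change of -0.04 (0.0042 for all genes) and a median size of 0.19 (0.27 for all genes). The groups did not overlap for 23 of the 36 tested members, against 52.3% of all tested genes. Among members, Hif1a, Ddit4 and Ndrg1 passed with a change of at least 2-fold, and 8.45% of all tested genes did. Against a fold change of 1.2, 9 of the 36 members passed, and 20.6% of all tested genes did. Unlike the 52.9%, the values given for all genes were not limited to genes of such level.

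**Figure D1:**
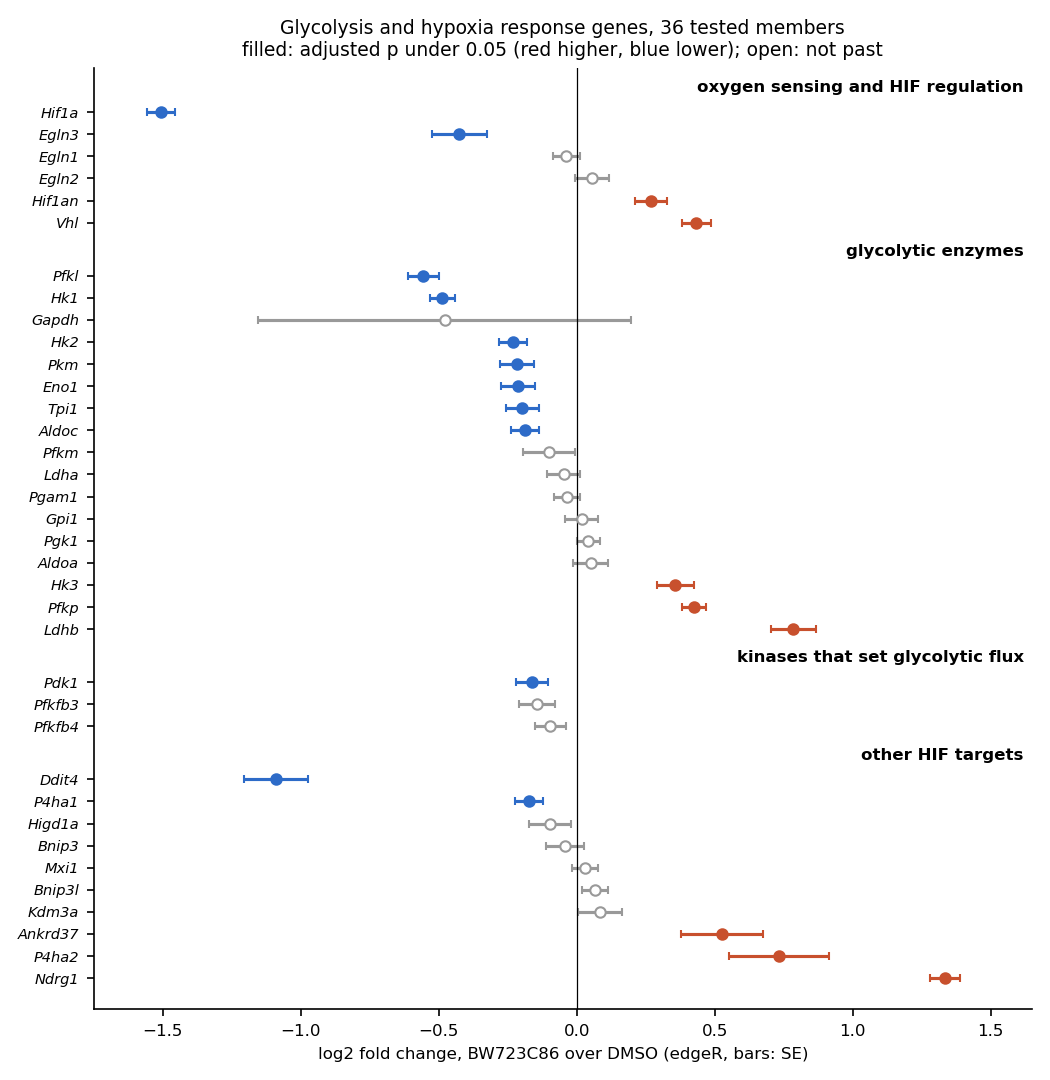
Log2 fold change (BW723C86 over DMSO) of each of the 36 tested genes with its standard error, by role, with filled points for an adjusted p under 0.05. Hif1a and Ddit4 lie farthest to the left and Ndrg1 farthest to the right, most glycolytic enzymes sit close to 0, and the bar of Gapdh is far wider than the others.

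The transcript of HIF-1α fell and those of some of its negative regulators rose. Of the 6 genes of oxygen sensing and HIF regulation, Hif1a and Egln3 fell, Vhl and Hif1an rose, and Egln1 and Egln2 did not pass. Hif1a (ENSMUSG00000021109) stood at 265.5, 263.0 and 275.9 CPM in DMSO replicates 1 to 3 and at 92.7, 100.5 and 89.8 CPM in BW723C86 replicates 1 to 3. Every treated library was far below every control library. The fall was 2.84-fold, by 1.51 on the log2 scale (SE 0.051, adjusted p = 1.11e-10), and its log2 value stayed between -1.58 and -1.34 across 19 alternative analyses. Per kilobase of transcript Hif1a went from 56.8 to 20.0 CPM, which moved it from above Egln1, Egln2 and Vhl to between Egln1 (18.7) and Vhl (24.0).

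Vhl, which recognises hydroxylated HIF-1α for destruction, was at 48.4, 48.0 and 52.2 CPM with DMSO and at 66.8, 67.7 and 66.3 CPM with BW723C86. The groups did not overlap and the log2 fold change was 0.43 (SE 0.053, adjusted p = 2.39e-05). Hif1an, the asparagine hydroxylase also called factor inhibiting HIF, which blocks coactivator binding, rose from 35.7 ± 1.0 to 43.1 ± 2.1 CPM (SD, n = 3, adjusted p = 0.00238, log2 fold change 0.27 with SE 0.059).

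The prolyl hydroxylases did not move together. Egln3, itself a HIF target and the least expressed of the family here, was at 15.4, 17.2 and 17.4 CPM with DMSO and at 12.3, 13.96 and 10.96 CPM with BW723C86. Its groups did not overlap, and it fell by 0.42 on the log2 scale (SE 0.10, adjusted p = 0.00397). Egln1, the main HIF prolyl hydroxylase of most cells, was at 70.8, 68.1 and 67.9 CPM with DMSO and at 66.9, 67.7 and 67.0 CPM with BW723C86. Its control libraries were all slightly higher, but the difference did not pass (adjusted p = 0.572, log2 fold change -0.04 with SE 0.048). Egln2 was at 58.9 ± 2.1 and 61.3 ± 4.7 CPM with overlapping groups. Summed per kilobase over the family, the level was 53.4 ± 1.0 with DMSO and 52.5 ± 1.8 with BW723C86, overlapping, while the share of Egln3 in it went from 11.7% ± 0.56 to 8.91% ± 1.3.

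**Figure D2:**
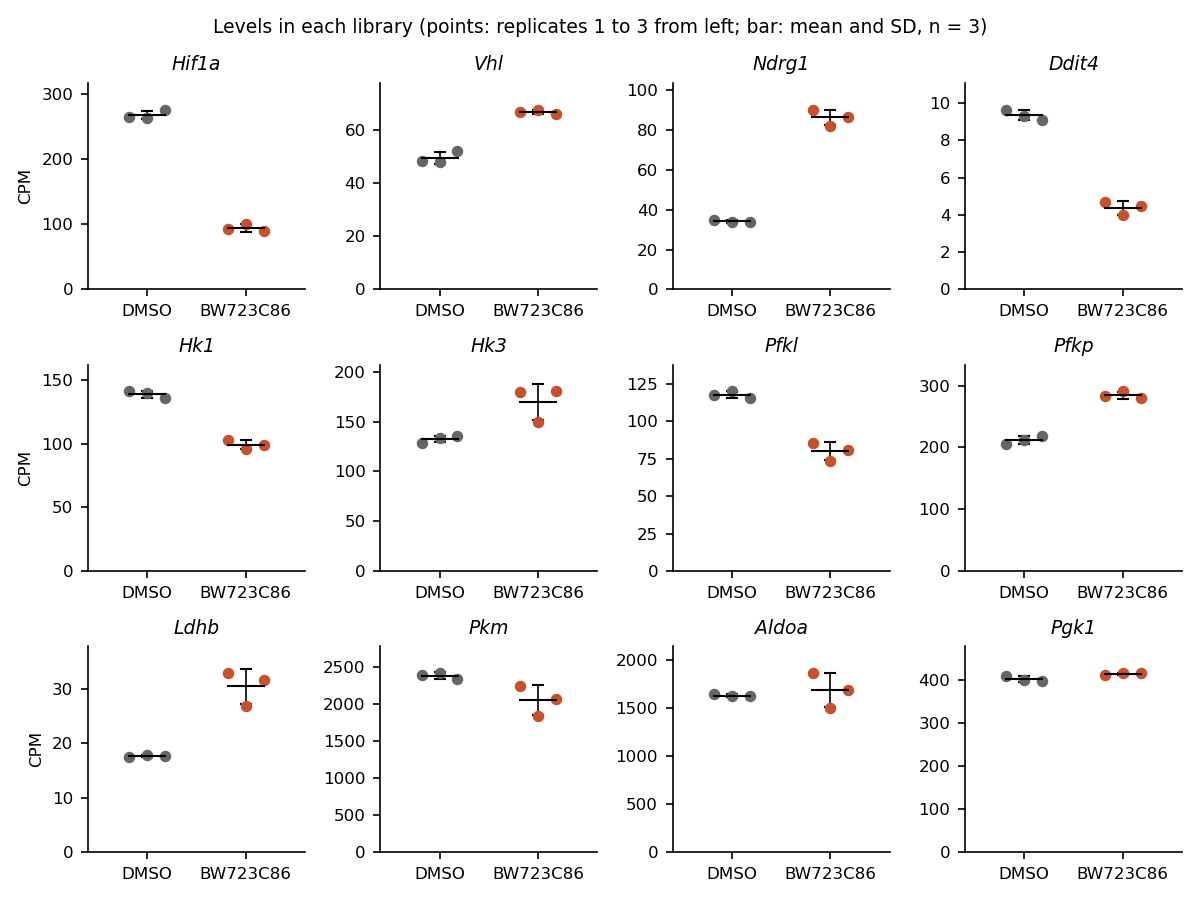
CPM of 12 genes in each library (linear axes from 0, points for replicates 1 to 3, bars for mean and SD, n = 3). Hif1a, Ddit4, Hk1 and Pfkl are lower and Vhl, Ndrg1, Hk3, Pfkp and Ldhb higher in every BW723C86 library, while Aldoa overlaps and Pkm and Pgk1 differ little.

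Glycolytic enzymes moved far less than Hif1a, and the clearest changes were between isozymes of a single step. Of the 17 enzymes, Hk3, Pfkp and Ldhb rose, Hk1, Hk2, Pfkl, Aldoc, Tpi1, Eno1 and Pkm fell, and Gpi1, Pfkm, Aldoa, Gapdh, Pgk1, Pgam1 and Ldha did not pass. Log2 fold changes ran from -0.56 to 0.79, with a median of -0.10, and none reached 2-fold. Their summed level, with Gapdh from its own row alone, was 9312 ± 102 CPM with DMSO and 8764 ± 679 CPM with BW723C86, and the groups overlapped. Without that row it was 9209 ± 76.3 and 8691 ± 725 CPM, also overlapping. Both sums leave out the near-identical copies of Gapdh, described below. With those copies Gapdh stood at 3581 ± 52.4 CPM with DMSO and 3103 ± 332 CPM with BW723C86.

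Hexokinases trap glucose in the cell by phosphorylating it. Hk1, the widely expressed form, was at 141.3, 139.9 and 135.8 CPM with DMSO and at 102.9, 95.9 and 99.0 CPM with BW723C86. No treated library came near a control library, and the gene fell by 0.49 on the log2 scale (SE 0.046, adjusted p = 2.14e-06). Hk2, the inducible form and a HIF target, fell by 0.23 (SE 0.051, adjusted p = 0.00252), from 73.4 ± 2.0 to 62.6 ± 2.2 CPM. Hk3, the form of myeloid cells, went the other way, from 129.0, 133.5 and 135.1 CPM to 180.1, 149.3 and 180.3 CPM. All treated libraries were higher, with replicate 2 the lowest of them (log2 fold change 0.36, SE 0.066, adjusted p = 0.000734). In CPM per kilobase, Hk3 made up 47.3% ± 0.76 of hexokinase with DMSO and 60.3% ± 2.3 with BW723C86, while Hk1 went from 37.4% ± 1.0 to 26.6% ± 1.2 and Hk2 from 15.3% ± 0.34 to 13.1% ± 1.3. The sum of the 3 hexokinases was 87.0 ± 0.74 and 87.3 ± 6.0 CPM per kilobase, so that the makeup differed between groups and the summed level overlapped.

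Phosphofructokinase commits sugar to glycolysis. Pfkl, the liver-type subunit, was at 117.7, 120.0 and 115.4 CPM with DMSO and at 85.9, 73.7 and 80.6 CPM with BW723C86. It was lower in every treated library, by 0.56 on the log2 scale (SE 0.056, adjusted p = 4.2e-06). Pfkp, the platelet-type subunit, was at 205.2, 212.5 and 218.0 CPM with DMSO and at 283.2, 290.8 and 279.7 CPM with BW723C86. It was higher in every treated library (log2 fold change 0.43, SE 0.044, adjusted p = 4.92e-06). Pfkm, the muscle-type subunit, was low at 13.2 ± 0.87 and 12.3 ± 0.97 CPM and did not pass. Per kilobase, Pfkp made up 58.6% ± 1.2 of the step with DMSO and 72.7% ± 1.8 with BW723C86, and Pfkl 36.2% ± 0.82 and 22.7% ± 1.5. Here the sum was slightly higher with BW723C86, at 94.4 ± 1.4 against 87.3 ± 1.4 CPM per kilobase, with no overlap.

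**Figure D3:**
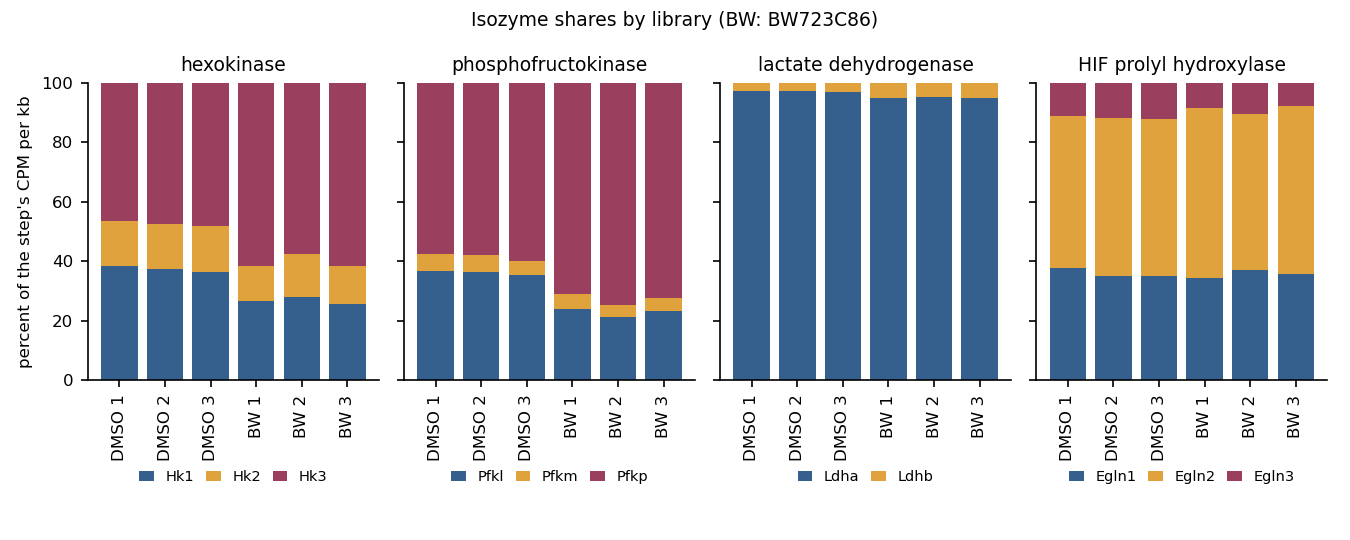
Share of each isozyme in the CPM per kilobase of its step (percent, stacked bars, 1 bar per library) for hexokinase, phosphofructokinase, lactate dehydrogenase and HIF prolyl hydroxylase. Hk3 and Pfkp take a larger share in all 3 BW723C86 libraries and Hk1 and Pfkl a smaller one, whereas Ldha stays above 94% of lactate dehydrogenase throughout.

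At the last step, Ldhb, the subunit that favours the conversion of lactate to pyruvate, was at 17.4, 17.8 and 17.7 CPM with DMSO and at 32.9, 26.8 and 31.6 CPM with BW723C86. All treated libraries were well above the controls, and the log2 fold change of 0.79 (SE 0.081, adjusted p = 5.19e-06) was the largest of the 17 enzymes. Ldha, the subunit that favours lactate formation and a HIF target, was at 844.8 ± 17.95 and 817.7 ± 74.6 CPM, overlapping, and did not pass (adjusted p = 0.569, log2 fold change -0.05 with SE 0.060). Ldhb nevertheless made up only 2.82% ± 0.049 of lactate dehydrogenase per kilobase with DMSO and 4.92% ± 0.11 with BW723C86.

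The abundant enzymes between those steps, Gapdh apart, changed by less than 1.2-fold. Pkm, the pyruvate kinase of macrophages and the enzyme with most counts in its own row, was at 2388, 2414 and 2330 CPM with DMSO and at 2238, 1835 and 2070 CPM with BW723C86. The treated libraries were all lower but spread widely, with replicate 2 lowest, and Pkm fell by 0.22 on the log2 scale (SE 0.063, adjusted p = 0.0142). Aldoa, the main aldolase, was at 1645, 1624 and 1623 CPM and at 1866, 1505 and 1694 CPM. Its treated libraries lay on both sides of the controls, and it did not pass (adjusted p = 0.575, log2 fold change 0.05 with SE 0.065). Without BW723C86 replicate 2 Aldoa would pass, with a log2 value of 0.11 (adjusted p = 0.0139).

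Eno1 (enolase) fell by 0.21, Tpi1 (triose phosphate isomerase) by 0.20 and Aldoc (the minor aldolase) by 0.19 on the log2 scale, with adjusted p of 0.0133, 0.0176 and 0.00965. These calls, and that of Pkm, were lost when some single control libraries were left out. Without DMSO replicate 2 the adjusted p was 0.0531 for Eno1, 0.0829 for Tpi1, 0.0567 for Aldoc and 0.0687 for Pkm. Without DMSO replicate 3 it was 0.0547 for Eno1 and 0.0727 for Tpi1, and without DMSO replicate 1 it was 0.0568 for Pkm. Gpi1 (glucose phosphate isomerase), Pgk1 (phosphoglycerate kinase, a HIF target) and Pgam1 (phosphoglycerate mutase) were at 687 ± 14.5, 403 ± 6.5 and 641 ± 10.0 CPM with DMSO and 696 ± 63.8, 415 ± 2.1 and 626 ± 30.5 CPM with BW723C86, and none passed. BW723C86 replicate 2 was the lowest library of its group for 13 of the 17 enzymes (76.5%), against 37.7% of all tested genes, and without it 11 of the 17 enzymes passed instead of 10.

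Gapdh, the glyceraldehyde phosphate dehydrogenase often used as a reference gene, could not be read from its own row. It held 11136, 6748 and 4021 counts with DMSO and 2478, 9446 and 2652 with BW723C86. The libraries scattered within both groups, and the log2 fold change of -0.48 had an SE of 0.67 (adjusted p = 0.632). The table also listed 76 other genes whose transcripts match Gapdh with at least 95% identity, mostly processed pseudogenes, and 75 of them had counts. In each library the Gapdh row held only 1.27% to 4.78% of the counts of this family, and 10 of the copies each held more summed counts than Gapdh itself. Summed over the family, the level was 3578, 3635 and 3530 CPM with DMSO and 3408, 2750 and 3151 CPM with BW723C86. The summed level was steady within DMSO and lower in every treated library (log2 fold change -0.21, SE 0.066, adjusted p = 0.0218, a sum chosen after the counts were seen), which is about the size of the changes of Eno1, Pkm and Tpi1. Of the other members with such copies, Eno1 held 91.9% to 92.4% of its family's counts, Pgam1 and Pgk1 over 95%, and Pkm, Tpi1, Ldha, Ldhb, Gpi1, Bnip3 and Bnip3l over 99%, and summing the copies changed none of their calls.

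**Figure D4:**
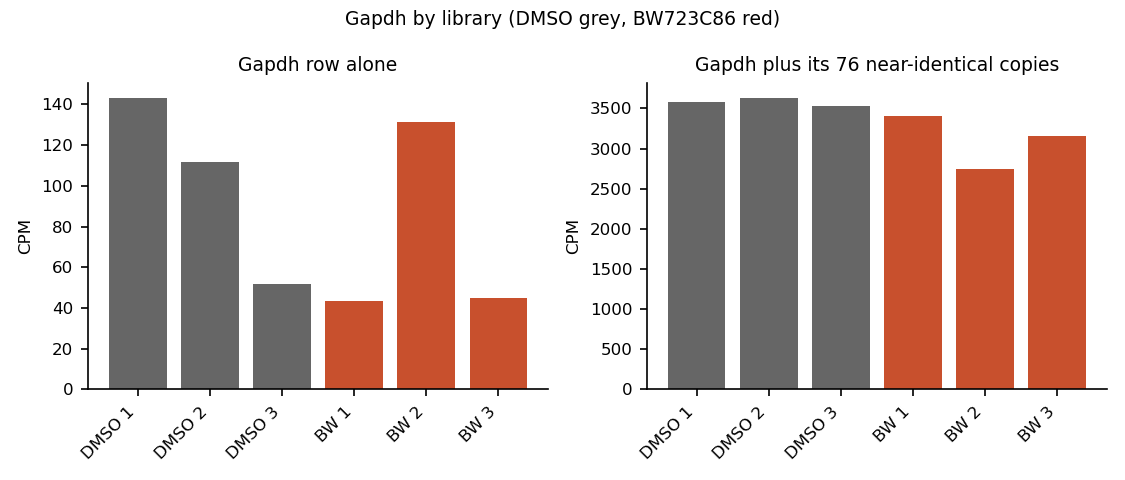
Gapdh in each library as CPM of its own row (left) and of the row summed with 76 near-identical copies (right), bars from 0, DMSO in grey and BW723C86 in red. The row alone varies widely within each group, while the summed family is at 3530 to 3635 CPM with DMSO and 2750 to 3408 CPM with BW723C86.

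The 3 kinases that set flux through glycolysis and into mitochondria changed little. Pfkfb3 and Pfkfb4 make fructose 2,6-bisphosphate, the activator of phosphofructokinase, and Pdk1 switches off pyruvate dehydrogenase. Pdk1 was at 35.2, 37.4 and 37.8 CPM with DMSO and at 33.2, 32.8 and 32.6 CPM with BW723C86. The groups lay close without overlap, and the fall of 0.16 on the log2 scale (SE 0.058, adjusted p = 0.0376) was lost without DMSO replicate 2 (adjusted p = 0.103), DMSO replicate 3 (0.133) or BW723C86 replicate 3 (0.0819). Pfkfb3 was at 41.1, 46.1 and 45.9 CPM and at 40.6, 41.9 and 37.9 CPM, which overlap, and did not pass (log2 fold change -0.14, adjusted p = 0.0946), though it did without BW723C86 replicate 2 (-0.19, adjusted p = 0.0236). Pfkfb4 was at 51.6, 49.9 and 50.9 CPM and at 49.9, 45.7 and 47.1 CPM, lower in each treated library by little, and did not pass (log2 fold change -0.09, adjusted p = 0.189). Both passed when counts were scaled by library totals alone (Pfkfb3 -0.22 with adjusted p = 0.0177, Pfkfb4 -0.17 with 0.0224) and when trends in GC content and length were removed (-0.23 with 0.0043 and -0.20 with 0.00148).

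Other HIF targets went both ways while Hif1a fell. Of the 10 tested, Ndrg1, P4ha2 and Ankrd37 rose, Ddit4 and P4ha1 fell, and Bnip3, Bnip3l, Kdm3a, Higd1a and Mxi1 did not pass, with a median log2 fold change of 0.05. Ndrg1, a stress-responsive gene linked to differentiation, was at 35.0, 33.7 and 33.7 CPM with DMSO and at 90.03, 82.2 and 86.6 CPM with BW723C86. Every treated library was far above every control, and the rise was 2.53-fold (log2 fold change 1.34, SE 0.054, adjusted p = 6.04e-10). Ddit4, which restrains mTORC1 signalling and also responds to glucocorticoids and stress, was at 9.64, 9.30 and 9.10 CPM with DMSO and at 4.71, 3.98 and 4.49 CPM with BW723C86. It was lower in all treated libraries, 2.13-fold, by 1.09 on the log2 scale (SE 0.12, adjusted p = 7.18e-06).

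The collagen prolyl hydroxylase subunits moved in opposite directions. P4ha2 was at 1.98, 2.74 and 2.08 CPM with DMSO and at 4.08, 3.74 and 3.46 CPM with BW723C86. It was low in all libraries and higher in each treated one (log2 fold change 0.73, SE 0.18, adjusted p = 0.00554). P4ha1, the better expressed subunit, was at 98.9, 101.6 and 101.2 CPM with DMSO and at 85.5, 95.0 and 86.8 CPM with BW723C86. It fell by 0.17 on the log2 scale without overlap (SE 0.051, adjusted p = 0.014), and the call was lost without DMSO replicate 2 (adjusted p = 0.0604), DMSO replicate 3 (0.0573) or BW723C86 replicate 3 (0.0695). Ankrd37, a small ankyrin-repeat protein, rose from 3.28 ± 0.34 to 4.72 ± 0.19 CPM (adjusted p = 0.0117, log2 fold change 0.53 with SE 0.15), which was lost without DMSO replicate 3 (0.0541).

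Bnip3l, a mitophagy receptor and the target with most counts, was at 161.6, 155.5 and 163.5 CPM with DMSO and at 165.5, 176.1 and 161.3 CPM with BW723C86. The groups overlapped and it did not pass (adjusted p = 0.299, log2 fold change 0.07 with SE 0.048). Its relative Bnip3 was at 38.5 ± 1.8 and 37.3 ± 3.0 CPM, the histone demethylase Kdm3a at 27.5 ± 0.93 and 29.2 ± 3.1, the mitochondrial protein Higd1a at 20.2 ± 0.84 and 18.9 ± 1.1, and the MYC antagonist Mxi1 at 88.6 ± 1.0 and 90.4 ± 3.9. None of these passed and all overlapped. Adm, which encodes the vasodilator peptide adrenomedullin, held 12, 0 and 5 counts with DMSO and 0 in each BW723C86 library, where 3 counts correspond to 0.0386 to 0.0523 CPM, and was too low to test.

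The rest of the pathway was read from 7 lists of further genes. Of all tested genes 42% passed, and of those that reached 5 CPM in at least 3 libraries 52.9%. Near the latter were transport (50%), other isozymes (50%), gluconeogenesis and glycogen (53.3%) and further HIF components (57.9%). The share was 64.7% for further HIF targets, 75% for the pentose phosphate pathway and 83.3% for pyruvate entry. Of 12 tested genes on the list for glucose and lactate transport, which takes in related transporters and chaperones, 2 rose and 4 fell. Emb, a chaperone of lactate transporters, fell from 782.5, 761.9 and 798.5 CPM to 316.3, 358.1 and 313.2 CPM. That is 2.37-fold with wide separation (log2 fold change -1.25, SE 0.055, adjusted p = 1.29e-09). Bsg, the other such chaperone, rose by 0.35 on the log2 scale and the glucose transporter Slc2a3 by 0.57, while the transporters Slc2a6 and Slc2a9 fell by 1.02 and 1.12. Slc2a1, the main glucose transporter induced by HIF, was at 148.4, 149.4 and 141.9 CPM and at 143.1, 133.0 and 136.6 CPM, overlapping, and did not pass (log2 fold change -0.09, adjusted p = 0.135).

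Of 16 tested other glycolytic isozymes and side enzymes, 3 rose and 5 fell. Eno2, the neuron-type enolase, rose by 1.197 from a low 1.72 ± 0.25 CPM, Minpp1 by 0.34 and Pgam2 by 0.48, and Gpd2, the mitochondrial glycerol phosphate dehydrogenase, fell by 0.58, Adpgk, the ADP-dependent glucokinase, by 0.37 and Galm by 0.32. Of 15 tested genes of gluconeogenesis and glycogen, 4 rose and 4 fell. Fbp1, the fructose bisphosphatase that opposes phosphofructokinase, was at 0.270, 0.381 and 0.206 CPM with DMSO and at 2.65, 1.25 and 2.43 CPM with BW723C86. It was low everywhere and higher in each treated library (log2 fold change 2.89, SE 0.37, adjusted p = 3.24e-05). Pygl, the glycogen phosphorylase of liver and myeloid cells, fell by 0.90 (SE 0.045, adjusted p = 3.81e-09), from 488 ± 3.2 to 261 ± 10.6 CPM, while the glycogen-targeting subunit Ppp1r3b fell by 0.56 and glycogen synthase Gys1 by 0.19, and Gyg rose by 0.18.

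In the pentose phosphate pathway, which draws glucose 6-phosphate away to make NADPH and ribose, 5 of 12 rose and 4 fell. The risers by smallest p were the dehydrogenases Pgd (log2 fold change 0.34) and G6pdx (0.22) and the transaldolase Taldo1 (0.23), and the fallers the pentose isomerases Rpe (-0.49) and Rpia (-0.46) and the lactonase Pgls (-0.29). Of 12 tested genes for pyruvate entry to mitochondria, 6 rose and 4 fell. The subunits of the mitochondrial pyruvate carrier parted, with Mpc1 at 0.33 and Mpc2 at -0.35, and so did those of pyruvate dehydrogenase, with Pdhb at 0.25 and Dld at -0.35. Its kinases parted too, Pdk2 at 0.40 and Pdk3 at -0.51, all with an adjusted p under 0.05.

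Of 19 tested further components of the HIF pathway, 5 rose and 6 fell. Epas1, which encodes the paralogue HIF-2α, was at 5.87, 6.67 and 6.54 CPM with DMSO and at 13.17, 12.96 and 12.95 CPM with BW723C86. It was higher in every treated library, 2.05-fold (log2 fold change 1.04, SE 0.097, adjusted p = 2.0e-06), the opposite of Hif1a. Per kilobase it stood at 1.153 and 2.36 CPM, still far under Hif1a in both groups. Their partner Arnt did not pass (log2 fold change -0.07, adjusted p = 0.449). Hsp90aa1, a chaperone of HIF-1α, fell by 0.71. Of the other parts of the ubiquitin ligase of Vhl, Eloc, Cul2 and Elob fell by 0.69, 0.44 and 0.36 while Vhl rose. Rbx1, also a part of it, did not pass (log2 fold change -0.09). Os9 and the ubiquitin ligase Siah2 rose by 0.35 and 0.46.

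Of 34 tested further HIF targets, 9 rose and 13 fell, with a median log2 fold change of -0.16 (0.0042 for all genes) and a median size of 0.51 (0.27 for all genes). Angptl4, a secreted inhibitor of lipoprotein lipase, was at 31.4, 29.7 and 28.0 CPM with DMSO and at 6.87, 5.56 and 7.67 CPM with BW723C86. All treated libraries were lower, 4.44-fold (log2 fold change -2.15, SE 0.11, adjusted p = 4.99e-09). Pgf, a growth factor of the VEGF family, fell by 1.17 and Ero1l, an oxidase of the endoplasmic reticulum, by 0.65. Bhlhe41, Hmox1 and Bhlhe40 rose by 0.57, 0.42 and 0.34. Of genes chosen after their values were seen, Lox, Rnf122 and Ak4 rose by 2.00, 0.99 and 0.95 on the log2 scale from low levels (0.435, 1.56 and 3.88 CPM with DMSO), with adjusted p of 0.000214, 0.00148 and 4.34e-05. Vegfa and Nos2, chosen in the same way, were lower: Vegfa fell by 0.79 on the log2 scale (adjusted p = 9.07e-07, SE 0.068), and the nitric oxide synthase gene Nos2 went from 1.81, 0.796 and 1.30 CPM with DMSO to 0.0872, 0.0556 and 0 CPM with BW723C86. The shares past the test in the 7 lists ran from 50% to 83.3%, against 42% of all tested genes and 52.9% of genes that reached 5 CPM in at least 3 libraries, and Slc2a1 and Gbe1 are each on 2 lists.

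**Figure D5:**
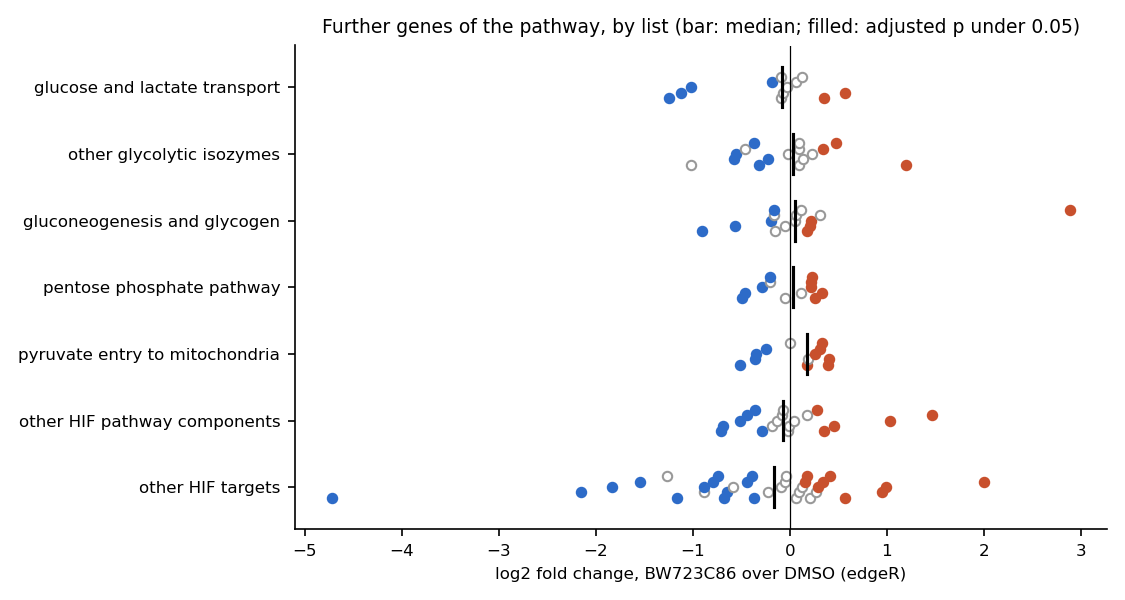
Log2 fold change (BW723C86 over DMSO) of each tested gene in the 7 lists of further pathway genes, 1 point per gene, filled for an adjusted p under 0.05, with a bar at the list's median. Every list holds genes on both sides of 0. Fbp1 is the point farthest to the right, and Nos2 the point farthest to the left, with a position that rests on few counts.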

How the data were processed

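RNA of 6 libraries was selected for poly(A), made strand-marked with dUTP and sequenced as paired ends, per the labels' protocols. fastp, HISAT2, StringTie and edgeR and the builds GRCm39 and GRCh38 were named by the authors, per the submitters' processing notes, while the sources used here do not give the counting step or its use of strand. The table deposited by the authors holds estimated counts, which were whole numbers in every row. Of its 28822 identifiers, 4300 held no counts. The value 4 occurred 4613 times, against 2904 for 3 and 2552 for 5, so 1 count need not be 1 fragment, and the detection floor of 3 counts is uncertain and covers counting error only. GENCODE M21, of another build, gave symbols (27005 identifiers), lengths and GC content.

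Groups were compared with edgeR 4.0.16 (R 4.3.3): TMM scaling, its default expression filter by group, robust quasi-likelihood F test, two-sided, Benjamini-Hochberg adjustment over 15567 genes, threshold 0.05. Levels are CPM on TMM-scaled totals, given as mean ± SD. SE is of the log2 fold change, worked back from the test as its absolute value over the square root of F. Copies were found with BLAST 2.17.0 (at least 95% identity over at least 300 bases and 50% of the copy). Tried besides were DESeq2 1.42.0, limma-voom (limma 3.58.1), further scalings and filters, a non-robust fit, a replicate block, counts divided by 4, a test against 1.2-fold and each library left out. The members and lists were chosen with earlier results of these data known. Given in full were, per role, the 3 largest changes past the threshold and the 2 members with most counts, and from each list up to 3 genes of smallest p per direction. Slc2a1, Arnt, Elob, Rbx1, Vegfa, Nos2, Lox, Rnf122, Ak4, Hif1an and the other members shown in brief fall outside that rule. A gene that the rule named is not reported here.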

Additional observations from a re-analysis of the deposited data

How the results depend on the processing

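Hif1a, Vhl, Hk1, Pfkl, Pfkp, Ldhb, Ddit4 and Ndrg1 passed in the same direction in all 19 alternatives, and P4ha2 in the 18 that tested it. No member that passed changed sign in any alternative. The 20 members past the threshold became 9 in a test against a fold change of 1.2 (5 higher, 4 lower, 4 of them glycolytic enzymes), where 20.6% of all tested genes passed. Leaving out each library gave 14 to 22 members, 7 to 9 higher, 6 to 13 lower and 6 to 11 glycolytic enzymes, and the low end of 6 lower members and 6 enzymes came without DMSO replicate 2. With the replicate number as a block 19 members passed (8 higher, 11 lower), and Pdk1 was the call lost (adjusted p = 0.077). Same-numbered libraries did not deviate together (correlations 0.031, -0.0247 and -0.00481), and of the DMSO libraries replicate 1 alone correlated best with its own number. Such values cannot show whether same-numbered libraries share a culture or animal, which the labels do not state. Removing trends in GC content and length, chosen after seeing the data, gave 27 members (9 higher, 18 lower), with Bnip3l at a log2 fold change of 0.22 (adjusted p = 3.73e-05) and Pgam1 at -0.12 (0.00137). Library totals alone gave 22 members (8 higher, 14 lower), Pfkfb3 and Pfkfb4 being the calls gained. Members that did not pass changed sign as follows. With library totals alone, which shifted the median of all genes by -0.07, Egln2 was at -0.018, Gpi1 at -0.057, Aldoa at -0.025, Pgk1 at -0.031, Bnip3l at -0.0073 and Mxi1 at -0.043. With GC and length trends removed, Egln2 was at -0.051, Gpi1 at -0.097, Aldoa at -0.025, Pgk1 at -0.015 and Bnip3 at 0.14. Leaving out single libraries moved Gpi1 between -0.040 and 0.074, Aldoa between -0.031 and 0.11, Ldha between -0.112 and 0.0051, Bnip3 between -0.100 and 0.013, Kdm3a between -0.0045 and 0.16 and Mxi1 between -0.0088 and 0.061, and Gpi1 was also below 0 (-0.013) without BW723C86 replicate 3. The cause was not tested. Depth limits chiefly Adm, P4ha2, Ankrd37 and Ddit4, the members with fewest counts.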

Other observations

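A second identifier with the symbol Aldoa (ENSMUSG00000114515) held 55, 48 and 59 counts with DMSO and 27, 21 and 18 with BW723C86 (log2 fold change -1.08, SE 0.39, edgeR adjusted p = 0.0404), while the main Aldoa row did not pass. Of the 76 genes nearly identical to Gapdh, 52 were tested. With BW723C86 14 of them passed as lower and none as higher, while 20.7% of all tested genes passed as lower. Of the 52, 49 had a log2 fold change below 0 (median -0.21). Genes this alike in sequence may share reads, so these counts cannot be read as that many independent changes.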
